A study of Mus musculus with 4 samples.

Results

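The genes described here are 10 mouse genes of growth factor signalling, 9 receptors and 1 ligand, each taken from the deposited table of 52636 genes as the row with the most reads for its symbol. They were Ntrk2, Ntrk3 and Ngfr (neurotrophin receptors), Bdnf (a neurotrophin), Fgfr1 and Fgfr2 (fibroblast growth factor receptors), Igf1r and Insr (receptors for insulin-like growth factor 1 and insulin), and Egfr and Erbb4 (receptors of the epidermal growth factor family). All 10 symbols had exactly 1 row, and 9 of the 10 genes had enough counts to be tested, Ngfr being the exception.

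The study sequenced RNA of sorted dentate gyrus cells from 2 wild type and 2 Fmr1 knockout (Fmr1-/y) samples, all on a C57BL/6 background. The mice were 6 to 7 weeks old, the knockout line carried the Dcx-DsRed reporter, and the wild types were its littermates. DsRed marks cells in which Dcx is active, the gene of a microtubule-binding protein made by neuroblasts and young neurons. The protocol names sorts of 10000 living cells, of all kinds or DsRed positive, and the series title and design name the DsRed positive cells. The knockout allele is not named, and nothing says whether replicates came from different animals. A p-value here therefore measures how far these libraries spread, which may be technical.

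Many receptor tyrosine kinases pair up when a ligand binds, phosphorylate each other and recruit adaptors that feed the RAS-MAPK, PI3K-AKT and phospholipase C gamma routes. Ntrk2 encodes TrkB, the receptor of BDNF. In the dentate gyrus BDNF and TrkB are known for roles in the survival and dendrite growth of new granule neurons, FGF and EGF receptors for roles in stem cells and dividing progenitors, and ERBB4 for its place in interneurons and as a receptor of neuregulins. Ntrk2 also makes a truncated receptor without the kinase, abundant in astrocytes, and counts per gene cannot tell it from the full receptor.

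Libraries held 5478224 to 7213759 counts. Levels are given as scaled CPM, which are CPM on library sizes adjusted by the TMM method. Fmr1 lay at 73.1 and 91.6 scaled CPM in the wild type and 43.4 and 29.7 in the knockout libraries, a log2 fold change of -1.17 ± 0.36 (SE) in the direction of the labels that did not pass the test over all genes. Dcx lay at 330 and 166 scaled CPM in wild type replicates 1 and 2 and at 456 and 211 in knockout replicates 1 and 2. All 10 neuroblast markers were counted in each library, and so were all 10 markers each of astrocytes, oligodendrocyte precursors and oligodendrocytes, so the libraries held transcripts of other cell types beside those of the labelled sort. The libraries also stood apart by replicate number: both replicate 2 libraries lay above both replicate 1 libraries for 26.0% of the 14673 genes tested and below them for 25.9%.

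The sequences before the starts of 4 of these genes are shown because 3 of them (Egfr, Erbb4, Fgfr2) differed most between the replicate numbers among the tested genes with a promoter entry, and because Bdnf has the most starts. The Bdnf start shown was chosen after the search, as the 1 window of all 13 with a cAMP response element half-site. They are RefSeq sequences on GRCm38.p6, the 250 bases before an annotated start, and capitals mark the motifs searched. Of the 10 genes, 7 matched a promoter entry by symbol, with 13 starts in all. Bdnf had 7 of these, and 0.107% of genes in the table have 7 or more. The Egfr window is chr11:16751953-16752202 (plus strand), the Erbb4 window chr1:69108060-69108309 (minus), the Fgfr2 window chr7:130266809-130267058 (minus) and the Bdnf window, 1 of 7, chr2:109692186-109692435 (plus).
Egfr: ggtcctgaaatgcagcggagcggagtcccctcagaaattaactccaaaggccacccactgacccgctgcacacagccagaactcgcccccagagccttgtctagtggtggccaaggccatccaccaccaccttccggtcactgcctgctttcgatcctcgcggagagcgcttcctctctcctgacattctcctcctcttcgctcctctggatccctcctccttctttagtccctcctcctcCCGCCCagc
Erbb4: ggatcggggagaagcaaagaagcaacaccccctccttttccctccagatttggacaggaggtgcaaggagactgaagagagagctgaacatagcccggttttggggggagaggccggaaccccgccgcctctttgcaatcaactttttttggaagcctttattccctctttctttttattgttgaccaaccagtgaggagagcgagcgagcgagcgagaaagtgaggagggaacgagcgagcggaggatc
Fgfr2: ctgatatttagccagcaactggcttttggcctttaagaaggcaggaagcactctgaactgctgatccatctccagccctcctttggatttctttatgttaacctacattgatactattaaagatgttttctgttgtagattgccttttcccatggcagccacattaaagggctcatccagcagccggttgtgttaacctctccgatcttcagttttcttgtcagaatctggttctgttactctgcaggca
Bdnf: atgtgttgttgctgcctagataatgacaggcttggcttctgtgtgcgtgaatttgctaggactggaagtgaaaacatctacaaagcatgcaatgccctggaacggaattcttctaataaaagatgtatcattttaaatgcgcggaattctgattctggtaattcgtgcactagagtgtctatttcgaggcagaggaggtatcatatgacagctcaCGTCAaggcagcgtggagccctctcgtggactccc

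The motifs searched were the GC box GGGCGG, the half-site of the cAMP response element CGTCA and the E-box CACGTG, each on both strands, and TATAAA on the forward strand. The Egfr window held a GC box at position -9, counted back from the start, and this motif was in 32.7% of all 32851 windows of this length. The Bdnf window held the half-site at position -35, a motif in 17.8% of all windows, and the other 6 Bdnf windows did not hold it. GC boxes were in a pair of those 6, the nearest to the start at -43 in the one and at -215 in the other. The Erbb4 and Fgfr2 windows held none of the 4 motifs. CpG pairs numbered 11 in the Egfr window, 12 in the Erbb4 window, 9 in the Bdnf window and 2 in the Fgfr2 window, against a median of 6 over all windows. The window of Igf1r held 42, more than 99.1% of all windows. A match is a match of letters only.

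Levels of different genes were compared per length, as scaled CPM per kilobase of the deposited gene length. By the mean of the 4 libraries the order was Ntrk2, Fgfr1, Igf1r, Ntrk3, Fgfr2, Insr, Egfr, Bdnf, Erbb4 and Ngfr. Ntrk2 had 35.3 per kilobase, more than 93.85% of the tested genes, and Fgfr1 had 28.8, more than 91.6%. Igf1r had 13.0, Ntrk3 9.63, Fgfr2 9.02 and Insr 8.73 per kilobase. Egfr, Bdnf and Erbb4 were close together at 4.16, 4.14 and 4.13 per kilobase, and Ngfr had 0.146. Of the 9 pairs of neighbours in this order, 3 did not overlap in their 4-library ranges. These were Igf1r above Ntrk3, with 11.56 as the lowest Igf1r and 11.35 as the highest Ntrk3 value, Insr above Egfr, and Erbb4 above Ngfr. With the length of the longest coding transcript in place of the deposited length, a choice made after seeing the data, Fgfr2 moved from the fifth to the third place. Ntrk3 values then rose 1.53 times and Igf1r values 1.47 times, which closed the gap between their ranges. The levels themselves then changed by up to 2.40 times, to 77.8 for Ntrk2, 56.4 for Fgfr1, 21.6 for Fgfr2 and 14.7 for Ntrk3, so a level per length holds only for the length it uses.

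**Figure D1:**
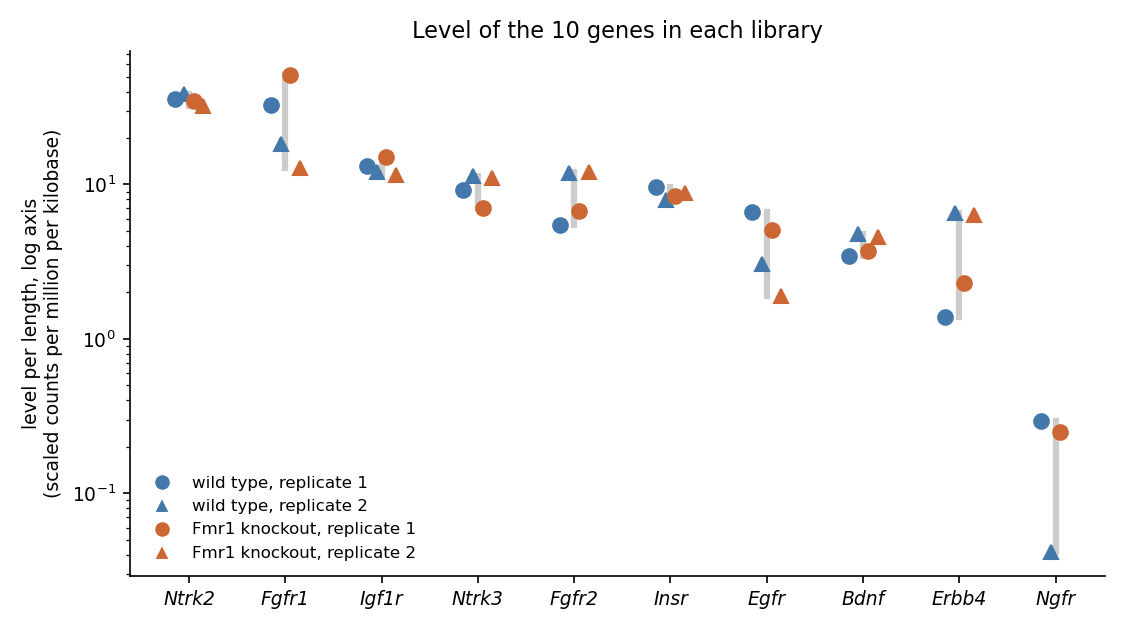
Levels per length (scaled CPM per kilobase, log axis) of the 10 genes in each library, with circles for replicate 1, triangles for replicate 2, and a grey bar from the lowest to the highest value above 0. Ntrk2 sits at 32.2 to 38.3 in all 4 libraries, while Fgfr1 runs from 12.7 to 51.5. Ngfr had 0 counts in knockout replicate 2, which a log axis cannot show.

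Between the genotypes no gene passed the test. The quasi-likelihood F-test of edgeR, with p-values adjusted by Benjamini-Hochberg over all 14673 genes, called 0 genes higher (0%) and 0 lower (0%) in the knockout at an adjusted p under 0.05. It called 0 of the 9 tested genes. At an unadjusted p under 0.05 it had 154 of all genes (1.05%) and 0 of the 9, DESeq2 had 246 and limma voom 87, with 0 called by either and 0 of the 9 at that level. Of the 9 genes 5 had estimates above 0 and 4 below, with a median log2 fold change of 0.01, against 7565 above, 7108 below and a median of 0.02 over all genes. In 1 of the 9, Ntrk2, the 2 knockout values were both under the 2 wild type values, a position held by 13.7% of all genes, and in 0 of the 9 both were over them, against 11.8%.

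Ntrk2 (ENSMUSG00000055254.15, chromosome 13, 58806569 to 59133970, plus strand) had the highest mean level per length of the 10 genes and varied least among the 9 tested. In knockout replicate 1 Fgfr1 was above it, at 51.5 against 34.8 per kilobase. Ntrk2 had 689 and 739 scaled CPM in wild type replicates 1 and 2 and 672 and 621 in knockout replicates 1 and 2. The highest library was 1.19 times the lowest. The knockout values did not overlap the wild type values and were lower, but the means of 714 ± 35.6 and 646 ± 35.5 scaled CPM (SD, n = 2 each) differed by a log2 fold change of -0.14 ± 0.25. (SE) Its 95% interval ran from -0.74 to 0.45, and the adjusted p was 0.9999 (edgeR), as it was for each of the 9 genes. The annotation lists 10 transcripts of this gene, 7 of them protein coding.

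Ntrk3 (ENSMUSG00000059146.12, chromosome 7, 78175959 to 78738012, minus strand) encodes TrkC, the receptor of neurotrophin 3. It had 279 and 342 scaled CPM in wild type replicates 1 and 2 and 211 and 330 in knockout replicates 1 and 2. Both replicate 2 libraries were higher than both replicate 1 libraries, and the genotypes overlapped. The log2 fold change was -0.20 ± 0.32 (SE, 95% interval -0.95 to 0.56). Per length, Ntrk2 exceeded Ntrk3 in every library, by 3.87 and 3.38 times in wild type and 4.97 and 2.95 times in knockout replicates 1 and 2.

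Ngfr (ENSMUSG00000000120.6, chromosome 11, 95568818 to 95587735, minus strand) encodes p75NTR, a neurotrophin receptor without a kinase that binds all neurotrophins. It was counted 6 and 1 times in wild type and 5 and 0 times in knockout replicates 1 and 2, 12 reads in all. The knockout to wild type ratio of its pooled counts, 5 against 7, was 0.763 after scaling, and its exact 95% interval, for counting error alone, ran from 0.191 to 2.79. A count of 0 in knockout replicate 2 allows up to 3 counts, or 0.486 scaled CPM. A difference between genotypes was not detectable at this depth.

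Bdnf (ENSMUSG00000048482.14, chromosome 2, 109674700 to 109727007, plus strand) is the ligand of the set and is known to be induced by neuronal activity. It had 21.5 and 29.8 scaled CPM in wild type replicates 1 and 2 and 23.1 and 28.5 in knockout replicates 1 and 2. Both replicate 2 libraries were higher, and the genotype means of 25.7 ± 5.85 and 25.8 ± 3.86 scaled CPM (SD, n = 2 each) were closer than either pair of replicates. The log2 fold change was 0.01 ± 0.45 (SE, 95% interval -1.05 to 1.06), so a difference of 2-fold lies within that interval. Its exons share 896 bases with the antisense gene Gm45346, which had 0 counts in the 4 libraries. The counting step's strand setting is not given in the sources used here.

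Fgfr1 (ENSMUSG00000031565.18, chromosome 8, 25513654 to 25575718, plus strand) is a receptor of FGF2 among other ligands. It had 324 and 179 scaled CPM in wild type replicates 1 and 2 and 508 and 126 in knockout replicates 1 and 2. The knockout libraries held both the highest and the lowest value, which differed 4.05 times, and replicate 1 was higher in both genotypes. The means were 252 ± 103 and 317 ± 271 scaled CPM (SD, n = 2 each), with a log2 fold change of 0.33 and a standard error of 0.63 (95% interval -1.15 to 1.81). The log2 difference of knockout minus wild type was 0.65 between the replicate 1 libraries and -0.51 between the replicate 2 libraries. The log2 fold change turned to -1.002 without knockout replicate 1 and to -0.049 without wild type replicate 2, and it was 0.998 without knockout replicate 2 and 0.81 without wild type replicate 1, with no call in any.

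Fgfr2 (ENSMUSG00000030849.18, chromosome 7, 130162451 to 133123350, minus strand) is its close relative. It had 56.1 and 122 scaled CPM in wild type replicates 1 and 2 and 69.5 and 125 in knockout replicates 1 and 2. Replicate 2 was higher in both genotypes, the opposite of Fgfr1. The log2 fold change was 0.13 ± 0.47 (SE, 95% interval -0.98 to 1.23). Per length, Fgfr1 exceeded Fgfr2 by 6.05 and 7.65 times in the replicate 1 libraries of wild type and knockout, and by 1.54 and 1.05 times in the replicate 2 libraries. With the lengths of the longest coding transcripts the ratio in knockout replicate 2 was 0.859, so there the order turned, and it was 1.26 in wild type replicate 2. The annotated span of Fgfr2 runs across neighbouring genes, and its exons share 314 bases with Ctbp2 on the same strand. Ctbp2 had 904 counts in the 4 libraries against 2357 for Fgfr2, and how reads in the shared bases were assigned was not tested.

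Igf1r (ENSMUSG00000005533.10, chromosome 7, 67952827 to 68233668, plus strand) had 222 and 203 scaled CPM in wild type replicates 1 and 2 and 252 and 194 in knockout replicates 1 and 2. Replicate 1 was higher in both genotypes, with a ratio of the highest to the lowest library of 1.30. Its log2 fold change was 0.07 ± 0.28 (SE, 95% interval -0.59 to 0.73). Insr (ENSMUSG00000005534.10, chromosome 8, 3122061 to 3279617, minus strand), a related receptor, had 133 and 109 scaled CPM in wild type replicates 1 and 2 and 116 and 121 in knockout replicates 1 and 2. Neither genotype nor replicate number set its libraries apart, and the highest was 1.21 times the lowest. Its log2 fold change was -0.03 ± 0.28 (SE, 95% interval -0.69 to 0.64). Per length, Igf1r exceeded Insr by 1.36 and 1.52 times in wild type and by 1.77 and 1.31 times in knockout replicates 1 and 2.

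Egfr (ENSMUSG00000020122.16, chromosome 11, 16752203 to 16918158, plus strand) binds EGF, TGF alpha and HB-EGF. It had 74.9 and 34.6 scaled CPM in wild type replicates 1 and 2 and 57.6 and 21.4 in knockout replicates 1 and 2. Each knockout library lay below the wild type library of the same replicate number, by 0.38 and 0.69 on the log2 scale, but knockout replicate 1 lay above wild type replicate 2. The means were 54.7 ± 28.5 and 39.5 ± 25.6 scaled CPM (SD, n = 2 each), and the log2 fold change of -0.47, the largest in size of the 9, had a standard error of 0.58 (95% interval -1.85 to 0.91). Without wild type replicate 1 it turned to 0.19 and without knockout replicate 2 to 0.059, while without knockout replicate 1 it was -1.35 and without wild type replicate 2 it was -0.94.

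Erbb4 (ENSMUSG00000062209.15, chromosome 1, 68032186 to 69108059, minus strand) had the widest spread of the 9. It had 17.1 and 80.6 scaled CPM in wild type replicates 1 and 2 and 28.4 and 78.1 in knockout replicates 1 and 2, a ratio of 4.71 between the highest and the lowest. Replicate 2 was higher in both genotypes. The log2 fold change was 0.12 ± 0.76 (SE, 95% interval -1.68 to 1.92). Without wild type replicate 2 the log2 fold change was 1.62, and it turned to -0.60 without wild type replicate 1 and to -0.80 without knockout replicate 2. The order of the 2 related receptors turned with the replicate number: per length, Egfr was 4.77 and 2.21 times Erbb4 in the replicate 1 libraries of wild type and knockout, and 0.468 and 0.299 times in the replicate 2 libraries. Between genotypes the log2 ratio of Egfr to Erbb4 differed by -0.88, and 2 libraries against 2 cannot give a p under 0.333 in a two-sided exact permutation test, which gave 0.667. The ratios of the other 3 receptor pairs gave 1.0 each, and with that limit these p-values show neither a difference nor its absence.

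**Figure D2:**
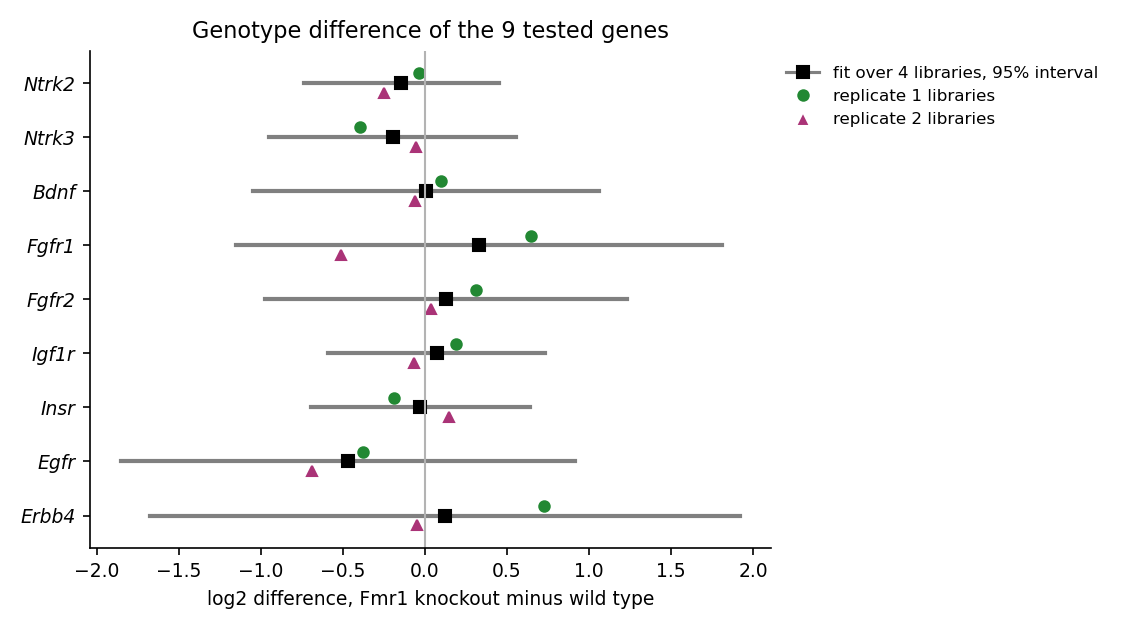
Log2 difference of Fmr1 knockout minus wild type for the 9 tested genes: squares are the fit over 4 libraries with its 95% interval (grey line), circles the difference between the replicate 1 libraries and triangles that between the replicate 2 libraries. Every interval crosses 0, and for Fgfr1 the circle lies at 0.65 and the triangle at -0.51.

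Several of these genes set the libraries apart by replicate number rather than by genotype. Both replicate 2 libraries were above both replicate 1 libraries for Ntrk3, Bdnf, Fgfr2 and Erbb4, 4 of the 9, and below them for Fgfr1, Igf1r and Egfr, 3 of the 9, which stands beside the 26.0% and 25.9% of all genes. The log2 difference of replicate 2 minus replicate 1 was 2.24 in wild type and 1.46 in knockout for Erbb4, and 1.12 and 0.85 for Fgfr2. It was -1.12 and -1.43 for Egfr and -0.85 and -2.02 for Fgfr1. For Ntrk2 it was 0.10 and -0.11. The replicate numbers are labels only, and what they stand for is not given, so the difference is described without a test.

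Markers of several cell types moved with the replicate number as well. All 10 oligodendrocyte precursor markers were higher in both replicate 2 libraries, with a summed level of 1817 and 5545 scaled CPM in wild type and 2110 and 6398 in knockout replicates 1 and 2. For oligodendrocyte markers 9 of 10 were higher, with sums of 1959 and 11455 in wild type and 4101 and 10478 in knockout. All 10 neuroblast and immature neuron markers were lower, with sums of 2496 and 1206 in wild type and 2900 and 1389 in knockout. Of 10 markers of dividing cells 6 were lower and 2 higher, with sums of 290 and 216 in wild type and 424 and 168 in knockout. Of 10 astrocyte and radial glia-like markers 7 were lower and 1 was higher, with sums of 11558 and 9510 in wild type and 11688 and 7806 in knockout. Their part in the differences of the receptors was not tested, and in sorted pools fewer cells of a type and less RNA per cell cannot be told apart.

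Interneuron markers summed to 71.4 and 84.4 scaled CPM in wild type and 74.0 and 158 in knockout replicates 1 and 2. Most of each sum was Gad1, at 62.6 and 69.8 in wild type and 60.3 and 97.9 in knockout. Of the 10 markers, 6 were at 0 in at least 1 library, among them Sst, Pvalb and Vip. Microglial markers summed to 31.5 and 107 in wild type and 56.5 and 93.3 in knockout, endothelial markers to 23.7 and 94.3 and to 37.2 and 79.1, and 4 of 10 in each list were at 0 in a library. Pericyte and fibroblast markers summed to 105 and 139 in wild type and 83.7 and 47.2 in knockout. Mature granule neuron markers, of which 5 were higher and 3 lower in both replicate 2 libraries, summed to 2735 and 3525 in wild type and 2787 and 4624 in knockout. Camk2a alone had 774 and 1777 scaled CPM in wild type and 819 and 2954 in knockout replicates 1 and 2. Its rise was larger than that of the sums. Prox1 fell from 874 to 540 in wild type and from 951 to 481 in knockout.

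**Figure D3:**
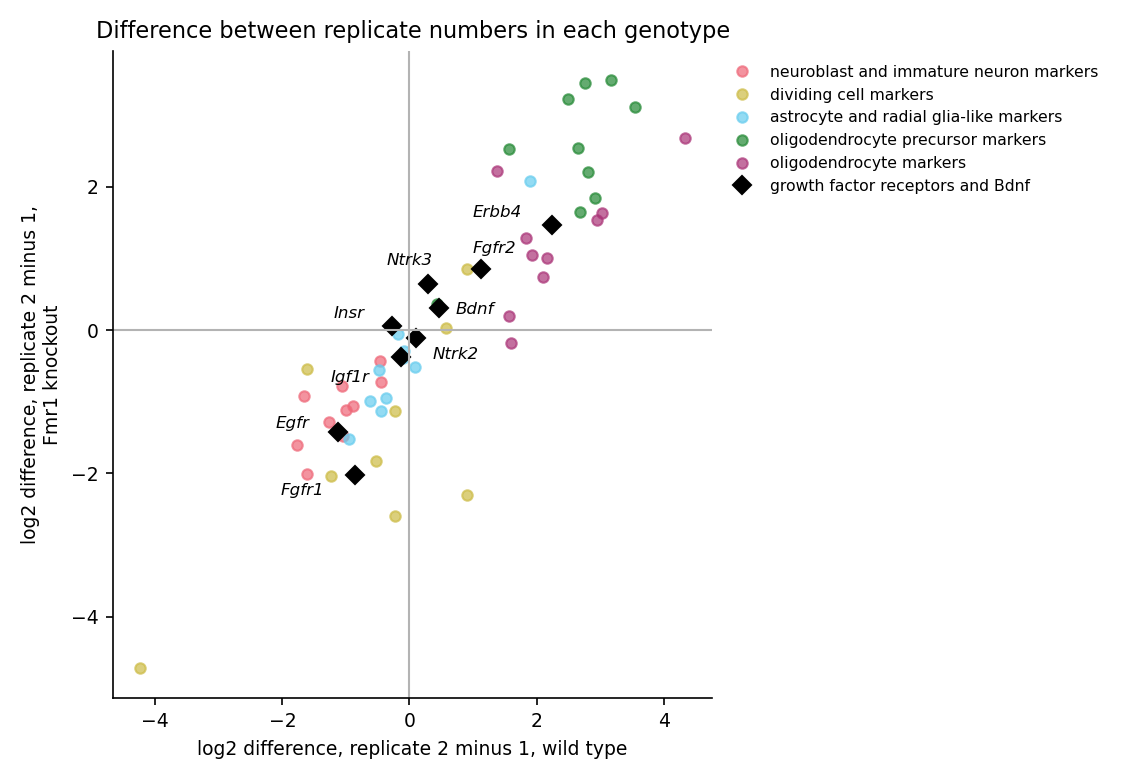
Log2 difference of replicate 2 minus replicate 1 in wild type (horizontal) and in knockout (vertical) for the 9 tested genes (black diamonds) and for markers of 5 cell types (coloured points, without Birc5, which had 0 counts in knockout replicate 2). Erbb4 lies at 2.24 and 1.46, toward the oligodendrocyte lineage markers. Egfr lies at -1.12 and -1.43, among neuroblast markers and near Sox9 of the astrocyte and radial glia-like list, at -0.96 and -1.51.

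The genes most alike in pattern were sought among 157 pathway and marker genes with at least 10 counts in each library, by the root mean square difference of log2 scaled CPM centred over the 4 libraries. With 4 points such likeness is a description of these libraries. Fgfr1 was most like the dividing cell markers Mki67 and Top2a, at differences of 0.14 each. Not all of that list moved so: 6 of its 10 markers were lower and 2, Pcna and Ccna2, higher in both replicate 2 libraries. Egfr was most like Sox9, a factor of stem cells and astrocytes (0.09), and Eomes, a factor of intermediate progenitors (0.13). In the astrocyte and radial glia-like list of Sox9, 7 of 10 markers were lower and 1, S100b, was higher in both replicate 2 libraries. Erbb4 was most like Tgfa (0.10) and the myelin gene Mbp (0.16). Fgfr2 was like Irs2, a docking protein of insulin and IGF receptors (0.12), and Bdnf most like Ptprz1 (0.03) and Igfbp5 (0.09). Igf1r was most like its docking protein Irs1 (0.03) and the RAS exchange factor Sos1 (0.04), Insr most like the kinase Braf (0.08) and the synapsin Syn1 (0.08), Ntrk3 most like the synaptic protein Snap25 (0.06) and Hbegf (0.08), and Ntrk2 most like the MAPK-activated kinase Rps6ka3 (0.05) and Cblb, a ubiquitin ligase of activated receptors (0.07).

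The same pathways were followed through 117 further genes in 7 lists, from ligands to feedback inhibitors. Of these, 95 were tested and 0 were called, with 0 at an unadjusted p under 0.05 (edgeR). Estimates lay above 0 for 71 of the 95 and below for 24, against 7565 above and 7108 below of the 14673 genes tested. The median log2 fold change of the 95 was 0.16 against 0.02 over all genes. All estimates come from the same 4 libraries, so the genes are not independent, and a shift of the lists was not tested. The knockout was higher without overlap in 16 of the 95 and lower in 3, against 11.8% and 13.7% of all genes. Replicate 2 was higher without overlap in 38 and lower in 20, against 26.0% and 25.9% of all genes.

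Among ligands and the other receptors, Ntf5, Fgf20, Ins2, Insrr and Ereg had 0 counts in all 4 libraries. Of 7 tested neurotrophin ligands and other receptors, 4 had estimates above 0 (median 0.02). Kidins220, a scaffold that Trk receptors phosphorylate, was the most abundant at 745 ± 145 and 755 ± 93.6 scaled CPM in wild type and knockout (SD, n = 2 each). Ntf3, the ligand of TrkC, had the smallest p of that list and a low level, at 6.27 and 2.30 scaled CPM in wild type and 2.39 and 0 in knockout replicates 1 and 2. Of 6 tested FGF ligands and other receptors 4 were above 0 (median 0.10), with Fgfr3, a receptor of stem cells and astrocytes, at 232 ± 55.4 and 238 ± 133 scaled CPM (SD, n = 2 each). Fgfrl1, a receptor without a kinase, had the smallest p there, at 47.3 and 58.3 scaled CPM in wild type and 37.7 and 40.3 in knockout. Knockout libraries were lower in Fgfrl1 without overlap, and the log2 fold change of -0.44 had a standard error of 0.35.

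All 7 tested genes of the insulin and IGF list had estimates above 0 (median 0.45), and none was called. The median was the estimate of Igf2r, 0.45 ± 0.41 (SE). The estimates above it, of Igf1, Igfbp3 and Igfbp4, had standard errors of 1.81, 1.34 and 0.81, and that of Igfbp5 was 0.07 ± 0.34 (SE). Igfbp5, an IGF binding protein and the most abundant, had 160 ± 52.5 and 168 ± 34.1 scaled CPM in wild type and knockout (SD, n = 2 each). Igf2r, which clears IGF2, had 78.8 and 75.5 scaled CPM in wild type and 145 and 66.8 in knockout replicates 1 and 2, so knockout replicate 1 alone stood out. The ligand Igf1 itself had 2.71 and 0.144 scaled CPM in wild type and 3.42 and 2.92 in knockout, and it is named outside the rule, after its values were seen. Of 8 tested genes of the EGF and neuregulin list 7 were above 0 (median 0.25). Tgfa, a ligand of EGFR, was the most abundant at 25.4 and 103 scaled CPM in wild type and 42.2 and 101 in knockout replicates 1 and 2, higher in replicate 2 as Erbb4 was. Nrg2, a neuregulin, had the smallest p, with 8.82 and 9.07 scaled CPM in wild type and 21.5 and 16.4 in knockout. The knockout libraries were both higher for Nrg2, and the log2 fold change was 1.08 ± 0.57 (SE), not called.

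Downstream, 15 of 20 tested adaptors and docking proteins had estimates above 0 (median 0.13). Shc3, an adaptor of Trk receptors in neurons, had 27.0 and 38.3 scaled CPM in wild type and 48.5 and 67.6 in knockout replicates 1 and 2, with a log2 fold change of 0.83 and a standard error of 0.39. Both knockout libraries were above both wild type libraries for Shc3, which had the smallest p of its list and was not called. The phosphatase Ptpn11, the most abundant, had 192 ± 48.3 and 206 ± 88.5 scaled CPM (SD, n = 2 each). Of 29 effectors 24 were above 0 (median 0.14), with the PI3K subunit Pik3r1 at 261 ± 54.9 and 305 ± 32.6 scaled CPM and the RAS inhibitor Rasa1 at 75.2 ± 17.1 and 98.1 ± 11.1 (SD, n = 2 each). Feedback inhibitors had 10 of 18 above 0 (median 0.11). Spred1, the most abundant of them, had 195 ± 73.1 and 194 ± 85.9 scaled CPM, and the phosphatase Ptpn1 had 48.4 ± 3.68 and 35.4 ± 5.32 (SD, n = 2 each) with a log2 fold change of -0.45 and a standard error of 0.36.

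**Figure D4:**
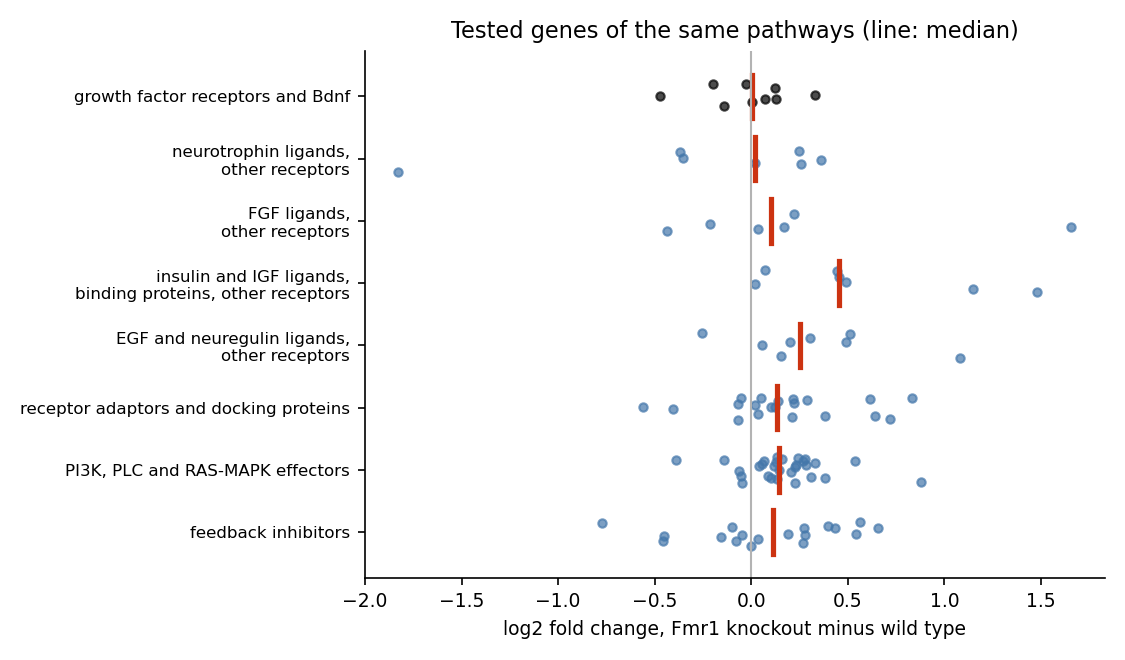
Log2 fold change of Fmr1 knockout minus wild type for each tested gene (points) of the receptors and Bdnf and of 7 pathway lists, with the list median as a red line; the vertical scatter within a list is only for legibility. The median of the receptors and Bdnf is 0.01 and that of the insulin and IGF list 0.45, which is the value of Igf2r. No point passed the test.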

How the data were processed

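Sequencing counts of 4 libraries, 2 per genotype, were read from 1 table. The authors deposited raw counts per gene, whole numbers that were not normalized, with the length of each gene in bases. Libraries were poly(A)-selected and strand-specific, and mapping used GRCm38 and Gencode genes (per the labels' protocols). The submitters' processing notes name STAR 2.5.3a. Which release, counter and strand setting were used is not given in the sources used here. The table had 0 further columns of per-sample values.

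Genes were filtered with filterByExpr, scaled by TMM and tested for genotype alone with edgeR 4.0.16 (R 4.3.3), using estimateDisp, robust glmQLFit and glmQLFTest, with Benjamini-Hochberg adjustment over the 14673 genes kept and a threshold of 0.05. A standard error is the absolute log2 fold change over the root of F, and 95% intervals use the test's degrees of freedom. The fit was tested on simulated data. Those had no difference between replicate numbers, unlike these libraries, so that test does not show how the fit performs here. Chi-square divided by its degrees of freedom was 41.3 between the wild type and 56.9 between the knockout replicates, so none was a repeated library. Positions and exon overlaps came from GENCODE M21, a release chosen here.

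The members and lists were chosen with earlier results of these data known. Named are all 10 genes, and from each pathway list the most abundant gene and, as none was called, the one with the smallest p. For each receptor and Bdnf the 2 genes most alike in pattern are named (some items are not reported here), with Fmr1 and Dcx as checks of the labels. Alternatives covered scaling, filters, DESeq2 1.42.0, limma 3.58.1 (voom), non-robust estimation, the replicate number as a block, each library left out, mitochondrial and rRNA-like genes left out, a loess on gene length and rows of a symbol summed.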

Additional observations from a re-analysis of the deposited data

How the results depend on the processing

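No alternative called any of the 9 tested genes or any of the pathway genes. Of 135 fold changes recomputed for the 9 genes, 119 kept their direction and 16 reversed. Scaled by library size alone, Bdnf had -0.052 in place of 0.01, and every other reversal came from leaving out 1 library, for which the cause was not tested. Over the 4 fits that each leave out 1 library, the log2 fold change ran from -0.21 to 0.25 for Bdnf, from -1.35 to 0.19 for Egfr, from -0.80 to 1.62 for Erbb4, from -1.002 to 0.998 for Fgfr1, from -0.37 to 0.78 for Fgfr2, from -0.13 to 0.23 for Igf1r, from -0.17 to 0.11 for Insr and from -0.57 to 0.088 for Ntrk3. For Ntrk2 it stayed below 0, from -0.20 to -0.10. The direction turned without wild type replicate 1 for Bdnf, Egfr, Erbb4, Fgfr2 and Insr, without wild type replicate 2 for Fgfr1 and Igf1r, without knockout replicate 1 for Fgfr1, Igf1r, Insr and Ntrk3, and without knockout replicate 2 for Bdnf, Egfr, Erbb4 and Fgfr2. In these fits a lone library is assumed to vary like the other genotype. Their smallest adjusted p for any of the 9 genes was 0.757 (edgeR), and Erbb4, Egfr and Fgfr1 each had an unadjusted p under 0.05 in 1 of them. They called 0 genes, with 57 to 1053 at an unadjusted p under 0.05.

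With the replicate number as a block, 10 genes were called over all genes in place of 0, none of them among the 9 or the pathway genes, and 778 had an unadjusted p under 0.05. For the 9 genes this fit had 14673 degrees of freedom, from a variance pooled over genes and not from the spread of each gene. The labels do not say that a number marks a shared litter or day. Over all genes, the deviations of same-numbered libraries correlated at 0.38, a hint from the data and not from the design. In the blocked fit Egfr had a log2 fold change of -0.53, Erbb4 of 0.32 and Fgfr1 of 0.08.

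With the longest coding transcript as the length, 5 of the 10 genes kept their place in the order of levels. The positions by genotype and by replicate number were the same under 4 scalings, except that Insr was lower in both replicate 2 libraries when scaled by library size alone.

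The counting error was taken for each tested gene in the library where that gene had its lowest count. It was 1.61% (Ntrk2) to 9.95% (Erbb4), while Ngfr had 12 reads in all.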
